A study of Mus musculus with 20 samples.

Results

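Transcripts of 10 genes that encode stathmins and neuronal microtubule-associated proteins were followed through the axonal and somatodendritic compartments of cultured mouse motoneurons with and without Tdp-43. The genes were Stmn1, Stmn2, Stmn3, Stmn4, Map1a, Map1b, Map2, Mapt, Dcx and Dpysl3, taken by symbol from the 39174 genes of the deposited tables, and all 10 had a value in each of the 20 libraries. Motoneurons were isolated from the spinal cord of CD-1 mouse embryos by panning with an antibody to the p75 receptor and were grown for about a week in microfluidic chambers, in which axons cross into a separate chamber whose RNA is collected apart from that of the cell bodies. Control cells carried an empty lentiviral vector that expresses GFP, and knockdown cells carried a lentivirus with a short hairpin RNA against Tdp-43 (gene symbol Tardbp). Each control group held 4 libraries and each knockdown group held 6, for the axonal and for the somatodendritic side. The control libraries also served an earlier study, the study's methods have both conditions handled side by side for sequencing, and the labels name no batch. Total RNA was pre-amplified by PCR without selection for RNA classes. Values are FPKM, fragments scaled to transcript length and to mapped fragments, so levels of different genes could be compared per length. The labels do not say whether libraries of a group came from separate cultures, and all p-values therefore measure only the spread between these libraries.

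Microtubules in axons and dendrites grow, shrink and are held stable by proteins that bind tubulin dimers or the polymer lattice. Stathmins bind free tubulin dimers and favour disassembly. Stmn1 is found in many dividing and neural cells, whereas Stmn2 (SCG10), Stmn3 (SCLIP) and Stmn4 (RB3) are neuronal members anchored to membranes, and STMN2 is known in human motoneurons for a cryptic exon that is used when TDP-43 is lost and that is not conserved in mouse. Map1b is the microtubule-associated protein of growing axons and Map1a its relative of mature neurons, Map2 is concentrated in dendrites, and Mapt (tau) in axons. Dcx (doublecortin) binds microtubules of migrating and growing neurons, and Dpysl3 (CRMP4) belongs to the collapsin response mediator proteins, which link guidance signals to the cytoskeleton.

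Tdp-43 binds RNA rich in UG repeats, and the transcripts were therefore searched for runs of alternating T and G of at least 6 bases (TGTGTG or GTGTGT, sense strand only, in the longest protein-coding transcript of the basic set in GENCODE M21 on build GRCm38). Dcx held 5 runs, Mapt and Dpysl3 held 4 each, Map1a and Map1b held 3 each, and Stmn2, Stmn4 and Map2 held 1 each. No such run lay in the searched transcripts of Stmn1 and Stmn3, which says only that these letters are not in those transcripts. Thus 80% of the 10 transcripts held a run, beside 80.9% of 11719 protein-coding genes tested, and the median number was 2 in both. The 10 transcripts were longer (median 5366 bases, beside 3287) and held fewer runs per kilobase (median 0.368, beside 0.615). Transcript length bears on the share with a run, since a run occurred in 45.7% of genes of a length like that of Stmn1, in 70.4% for Stmn2 and in 98.1% for Map2. The longest run of Dcx spanned 40 bases, a length reached in 1.95% of the genes, and that of Mapt spanned 9 bases, reached in 18.0%. A match is a description of the sequence and not a binding site. To show what these runs look like, 1 site per transcript is given for 6 genes, 5′ to 3′ on the transcript strand, with the run in capitals and up to 4 flanking bases on either side in lower case:
Stmn2 (3′ UTR, chr3:8560826-8560840, plus strand): gtacTGTGTGTccat
Stmn4 (3′ UTR, chr14:66361617-66361630, plus strand): ggtcTGTGTGcgtc
Map1b (coding sequence, chr13:99434784-99434797, minus strand): tgatTGTGTGgcat
Map2 (coding sequence, chr1:66414562-66414576, plus strand): atacTGTGTGTtcaa
Mapt (3′ UTR, chr11:104328907-104328923, plus strand): gtggGTGTGTGTGcccc
Dcx (3′ UTR, chrX:143861926-143861955, minus strand, 30 of the 40 bases): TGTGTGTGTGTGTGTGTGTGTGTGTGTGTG

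The genes lie on several chromosomes of GRCm38. Stmn1 spans chr4:134468320-134473843, Stmn2 chr3:8509360-8561606, Stmn4 chr14:66344296-66361680, Map1a chr2:121289600-121310832, Map2 chr1:66175273-66442583 and Mapt chr11:104231390-104332090, all on the plus strand. Stmn3 spans chr2:181306459-181314500, Map1b chr13:99421446-99516540 and Dcx chrX:143855842-143933311, all on the minus strand, as is Dpysl3 on chromosome 18. Stmn1 contains a miRNA gene on its own strand (Gm23634), Map1a overlaps Ppip5k1 and Map2 overlaps the antisense gene Gm10558, both on the opposite strand. Whether strand was used in counting is not given in the sources used here, so reads from these overlaps cannot be told apart. One value stands for all transcripts of a gene, 24 annotated for Map2 and 12 for Mapt, and isoforms were not analysed here.

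Tardbp, the targeted gene, was measured at 30.8, 19.0, 29.6 and 29.9 FPKM in the 4 somatodendritic control libraries and at 0 to 8.54 FPKM (median 3.86) in the 6 somatodendritic knockdown libraries, which did not overlap the controls. It fell by 3.07 on the log2 scale there (limma, adjusted p = 0.0231), a call that was lost when any single control library was left out (adjusted p 0.0619 to 0.0958) or with a pseudocount of 0.1 (0.130). On the axonal side it was measured at 32.3, 20.1, 32.3 and 13.4 FPKM in controls and, in the libraries labelled knockdown, at 33.2, 1.21, 4.97, 13.1, 13.98 and 11.5 FPKM (log2 difference -1.72, adjusted p = 0.431). The library labelled axonal knockdown 1, at 33.2 FPKM, lay above every axonal control, and its label is carried here with that reservation. The other 5 values rest on fewer than 3 implied fragments each. Sequencing depth relative to the deepest library was 0.530 to 0.674 in axonal controls, 0.612 to 1 in somatodendritic controls, 0.103 to 0.760 in axonal and 0.143 to 0.698 in somatodendritic knockdown, and 5 libraries were below 0.5 (axonal knockdown 2, 4 and 5, somatodendritic knockdown 5 and 6). For the 10 genes the implied number of fragments ran from 0 (Stmn3 in axonal knockdown 5) to 2385 (Map1b). The share of FPKM from mitochondrially encoded genes was 10.5% to 14.96% in all somatodendritic libraries. In axonal controls it was 8.92% to 13.1% in 3 libraries and 33.0% in control 4, and in axonal knockdown it was 12.8% and 8.88% in libraries 1 and 3 and 38.5% to 47.7% in the other 4 (medians 12.6% and 39.8%). Its part in the axonal results was not tested. Markers of motoneurons were low. The 8 of them in the files summed to 3.06 to 9.13 FPKM in somatodendritic controls, 2.86 to 24.8 in somatodendritic knockdown, 0 to 18.2 in axonal controls and 0 to 6.72 in axonal knockdown. Chat, Isl2 and Mnx1 were listed at 0 in all 20 libraries, whereas Ngfr, the p75 receptor used for panning, was above 0 in all somatodendritic libraries (mean 2.40 FPKM in control and 5.71 in knockdown) and Isl1 averaged 2.45 and 2.68 FPKM there. Pan-neuronal markers were abundant, and the cells are called motoneurons here as in the labels. Markers of other neurons, 8 genes that mark inhibitory, excitatory and sensory neurons, summed to 145 to 176 FPKM in somatodendritic controls, 109 to 169 in somatodendritic knockdown, 29.4 to 72.2 in axonal controls and 3.46 to 169 in axonal knockdown, with 2 of the 8 listed at 0 in all control and somatodendritic knockdown libraries. After somatodendritic knockdown 1 of 6 tested was called lower (adjusted p = 0.0283), and the part of these cells in the results was not tested. The summed FPKM of 8 pan-neuronal markers (Snap25, Elavl3, Elavl4, Syt1, Gap43, Uchl1, Ina and Rbfox3) was 1362 to 1519 in somatodendritic controls, 1528 to 1998 in somatodendritic knockdown and 370.0 to 468 in axonal controls. In axonal knockdown it was 373 to 526 in 4 libraries but 1457 and 1343 in libraries 3 and 4, near the level of the somatodendritic side. The differences of the 10 genes that include axonal knockdown libraries were therefore also computed without libraries 3 and 4, an alternative chosen after the data were seen, which was not run for the ratios of genes.

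All 10 transcripts were abundant in somatodendritic controls, with Dpysl3, Stmn2 and Map2 at the top and Map1a, Dcx and Stmn3 at the bottom. In order, the mean level was 440.1 ± 88.5 FPKM (SD, n = 4) for Dpysl3, 368 ± 15.7 for Stmn2, 329 ± 54.7 for Map2, 274 ± 13.8 for Map1b, 227 ± 26.9 for Mapt and 214 ± 26.0 for Stmn1. Stmn4 (159 ± 20.6), Stmn3 (67.9 ± 15.5), Dcx (55.8 ± 6.81) and Map1a (49.9 ± 6.14) followed. Neighbours in this order overlapped between libraries except at 2 steps, from Stmn1 to Stmn4 and from Stmn4 to Stmn3. In axonal controls the order was Dpysl3 (195 ± 43.7 FPKM, n = 4), Map2 (147 ± 92.8), Map1b (111 ± 12.2), Stmn2 (98.1 ± 7.42), Stmn1 (74.6 ± 5.62), Mapt (66.4 ± 18.7), Stmn4 (61.6 ± 20.3), Stmn3 (27.0 ± 10.2), Map1a (22.6 ± 10.3) and Dcx (19.2 ± 12.5). There only Stmn2 and Stmn1, and Stmn4 and Stmn3, were neighbours whose libraries did not overlap. Relative to their means, Stmn2 and Map1b varied least on the somatodendritic side, and Map2 and Dcx varied most on the axonal side, where library 4 held 278 FPKM of Map2 and the other 3 held 74.2 to 148 FPKM.

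After knockdown the somatodendritic order became Dpysl3 (742 ± 86.7 FPKM, n = 6), Map2 (529 ± 60.5), Mapt (434 ± 83.2), Stmn2 (367 ± 63.8), Map1b (326 ± 35.5), Stmn1 (217 ± 35.2), Stmn4 (125 ± 46.2), Dcx (101 ± 15.8), Map1a (62.3 ± 7.47) and Stmn3 (40.8 ± 5.71). Neighbours without overlap were Dpysl3 and Map2, Map1b and Stmn1, Stmn1 and Stmn4, Dcx and Map1a, and Map1a and Stmn3. In axonal knockdown libraries every neighbouring pair overlapped, from Map2 (323 ± 121 FPKM, n = 6), Dpysl3 (295 ± 231), Map1b (196 ± 86.5), Mapt (178 ± 124) and Stmn2 (126 ± 59.4) down to Stmn1 (118 ± 53.0), Stmn4 (57.3 ± 38.8), Dcx (53.2 ± 26.1), Map1a (43.2 ± 16.5) and Stmn3 (16.997 ± 14.7). Libraries 3 and 4 of that group were its highest for Stmn1, Stmn2, Stmn3, Map1b, Map2, Mapt, Dcx and Dpysl3.

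**Figure D1:**
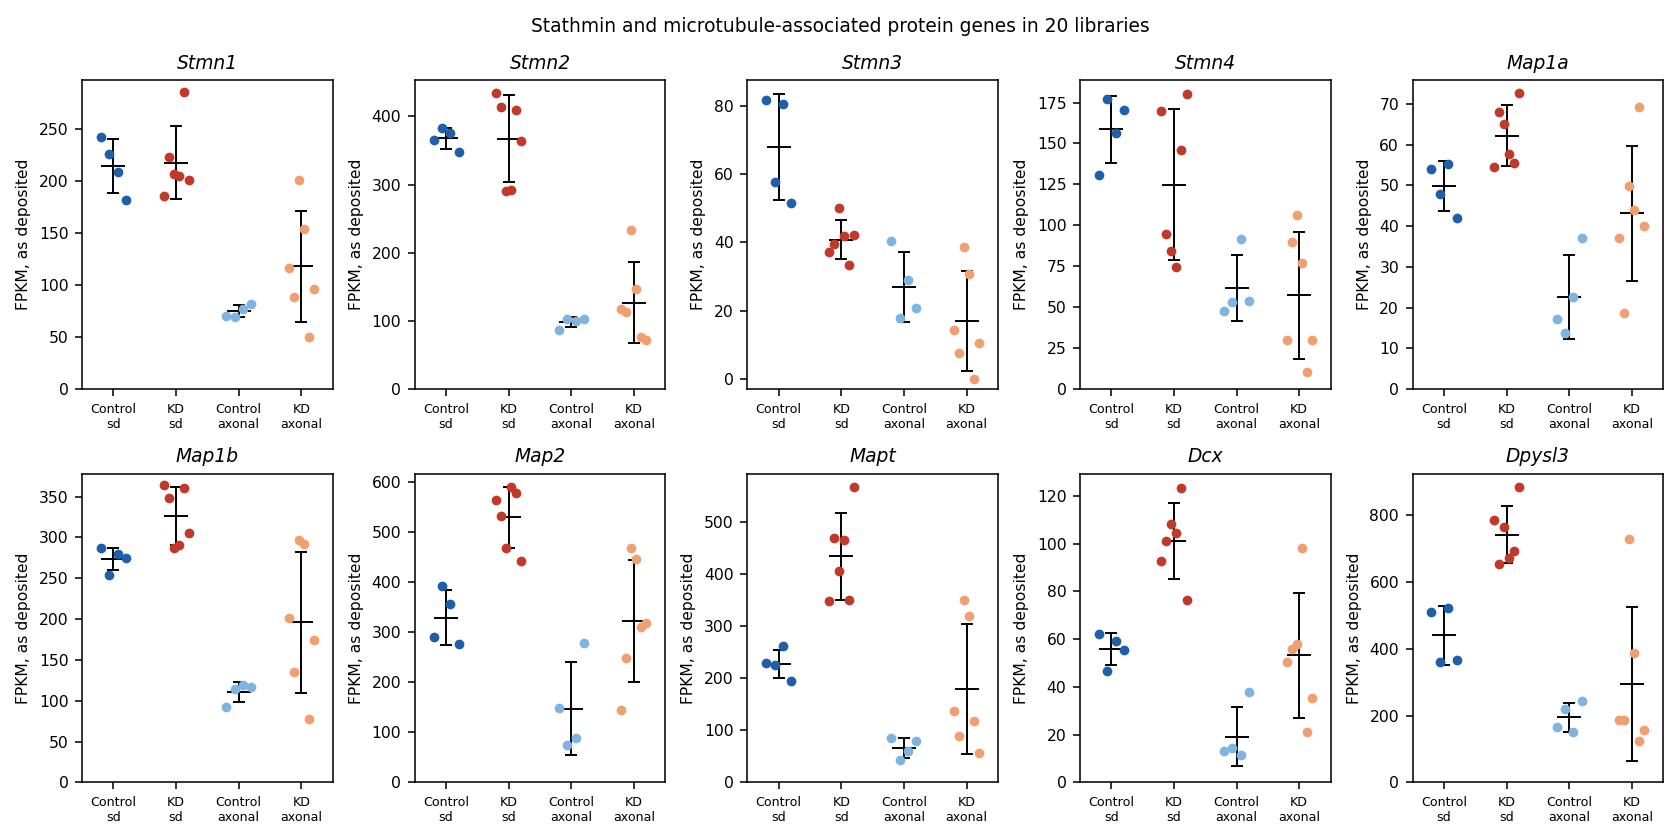
FPKM as deposited (vertical axes, from 0, linear) of the 10 genes in control and knockdown (KD) libraries of the somatodendritic (sd) and axonal compartments, with 1 point per library and bars for the mean and SD (n = 4 in control and 6 in knockdown groups). Axonal control points lie below all somatodendritic control points in 9 of 10 panels, the exception being Map2, and the axonal knockdown groups are the most spread.

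The first comparison asked how much of each transcript was found in axons relative to the cell body side of control motoneurons. After scaling libraries by the median of ratios, Stmn2, Mapt, Stmn1 and Map1b were lower in axons, 4 of 10 genes beside 2.57% of all 13760 genes tested that were called lower. These 4 hold the most abundant stathmins and the axonal and growth-associated microtubule-associated proteins. The other 6 genes had negative differences that did not pass the test. The median difference of the 10 genes was -0.79 on the log2 scale, and that of all genes was -0.02. In bulk samples fewer neurons, or less neuronal material, and less RNA of a gene per cell cannot be told apart.

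Among the stathmins, Stmn2 was measured at 366, 383, 376 and 347 FPKM in somatodendritic controls and at 87.1, 102, 100.3 and 103 FPKM in axonal controls. All axonal libraries lay far below all somatodendritic ones, and the log2 difference was -1.31 (95% interval -1.66 to -0.96, limma, adjusted p = 0.0018). Stmn2 was the only one of the 10 that remained called whichever single library was left out (adjusted p 0.00128 to 0.0112). Stmn1, the stathmin that is not restricted to neurons, was measured at 242, 225, 208 and 181 FPKM in somatodendritic and at 70.4, 69.5, 77.0 and 81.4 FPKM in axonal controls, again with no overlap. Its log2 difference was -0.92 (95% interval -1.32 to -0.52, adjusted p = 0.0142), and the call was lost without somatodendritic control 1 (adjusted p = 0.0639), 2 (0.0628) or 3 (0.0532). Stmn3 (-0.77, adjusted p = 0.171) and Stmn4 (-0.81, adjusted p = 0.0804) did not pass. Stmn4 was at 47.6, 53.1 and 54.0 FPKM in 3 axonal controls and at 91.8 FPKM in the library of replicate 3. Its difference was -1.05 (adjusted p = 0.0150) without that library, but leaving out the highest axonal value lowers the axonal mean by construction. Over the 8 fits that left out 1 library the adjusted p ran up to 0.211.

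Of the classical microtubule-associated proteins, Mapt was measured at 229, 225, 261 and 195 FPKM in somatodendritic and at 84.3, 43.2, 59.8 and 78.5 FPKM in axonal controls. The groups did not overlap, and the log2 difference was -1.22 (95% interval -1.74 to -0.70, adjusted p = 0.0135). The call for Mapt was lost without somatodendritic control 1 (adjusted p = 0.05004), 2 (0.0525) or 3 (0.0560). Map1b was measured at 287, 254, 279 and 275 FPKM in somatodendritic and at 92.6, 114, 119 and 117 FPKM in axonal controls, a difference of -0.72 (95% interval -1.08 to -0.36, adjusted p = 0.0285). This was the weakest of the 4 calls, lost without axonal control 1 (adjusted p = 0.0624) or 2 (0.0509) and without somatodendritic control 1 (0.0981), 2 (0.0847), 3 (0.0986) or 4 (0.0689). Map2, the dendritic protein, had a difference of -0.75 (95% interval -1.51 to 0.02, adjusted p = 0.229), and Map1a one of -0.63 (adjusted p = 0.244). Without axonal control 4, the library with 278 FPKM of Map2, the difference of Map2 was -1.09 (adjusted p = 0.0258). This was the highest axonal value of Map2, so leaving it out lowers the axonal mean by construction. Over the 8 fits that left out 1 library the difference ran up to -0.47 and the adjusted p up to 0.429. Axonal control 4 also held the mitochondrial share of 33.0%.

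Dcx was measured at 62.1, 46.5, 59.2 and 55.6 FPKM in somatodendritic controls and at 13.2, 14.4, 11.4 and 37.8 FPKM in axonal controls. The groups did not overlap, but axonal control 4, the library of high mitochondrial share, stood apart from the other 3. The difference of -1.09 did not pass (limma, adjusted p = 0.0747). It was -1.44 (adjusted p = 0.00380) without that library, but leaving out the highest axonal value lowers the axonal mean by construction. Over the 8 fits that left out 1 library the adjusted p ran up to 0.194. Dpysl3 was measured at 510.0, 362, 523 and 365 FPKM in somatodendritic and at 165, 219.9, 151 and 243 FPKM in axonal controls, without overlap, for a difference of -0.59 (adjusted p = 0.113). As deposited, the axonal mean was between 26.7% (Stmn2) and 45.3% (Map1a) of the somatodendritic mean, with a median of 39.3%.

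These compartment differences depend on what the libraries are scaled to. With FPKM as deposited, 9 of the 10 genes had axonal values below every somatodendritic value, beside 19.0% of all genes, and all 10 were called lower, beside 12.4%. After scaling, 5 of 10 did not overlap (Stmn1, Stmn2, Map1b, Mapt and Dpysl3), beside 7.71% of all genes. The median of all genes moved from -0.02 in scaled values to -0.48 in deposited values. The pan-neuronal markers were themselves lower in axonal controls, 7 of 8 with an adjusted p under 0.05 and a median difference of -1.23. When libraries were instead scaled to the summed pan-neuronal markers, an alternative chosen after the data were seen, none of the 10 was called, beside 33.3% of all genes, the differences ran from -0.13 (Stmn2) to 0.59 (Dpysl3), and the median of all genes was 0.94. Stmn2 and Mapt (-0.04) were the 2 genes that remained below 0 on that scale. Markers of other cells moved with the compartment as well. All 6 tested markers of other neurons had negative differences (median -1.34), with 3 called lower in axons. Glial and progenitor markers (14 genes) summed to 510 to 662 FPKM in somatodendritic and 635 to 973 FPKM in axonal controls. Vim averaged 150 and 448 FPKM there, and Nes 9.87 and 74.7 FPKM. Of 13 tested, 8 had negative and 5 positive differences (median -0.33). Among them 3 were called higher in axons, beside 576 of all 13760 genes, and 1 lower, beside 353. Fibroblast and vessel markers (9 genes) summed to 9.86 to 19.5 and 16.7 to 59.0 FPKM, with 1 of 3 tested called higher. The part of these markers in the differences was not tested.

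**Figure D2:**
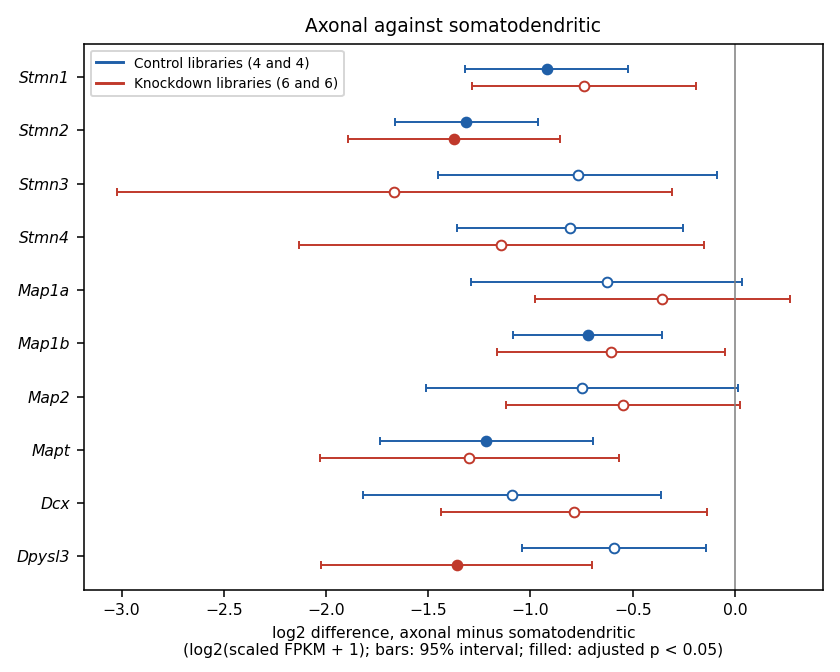
Difference between axonal and somatodendritic libraries (horizontal axis, log2 of scaled FPKM + 1) for the 10 genes in control and in knockdown motoneurons, with 95% intervals from limma and filled points for an adjusted p under 0.05. All 20 points are below 0, with filled points for Stmn1, Stmn2, Map1b and Mapt in controls and for Stmn2 and Dpysl3 in knockdown.

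The same comparison was made within the 12 knockdown libraries, where Stmn2 and Dpysl3 were lower in axons and no other gene passed. These 2 of 10 stand beside 0.421% of 14021 genes called lower. The median difference was -0.97 for the 10 genes and -0.06 for all genes. Stmn2 was measured at 289.8 to 435 FPKM (median 387) on the somatodendritic side and at 71.3 to 233 FPKM (median 115) on the axonal side. It was the only one of the 10 whose compartments did not overlap as deposited, beside 1.81% of all genes, and its difference of -1.37 (95% interval -1.89 to -0.86, limma, adjusted p = 0.0174) was called in each of the 12 fits that left out 1 library (adjusted p 0.00678 to 0.04996). With a replicate block none of the 10 was called. Dpysl3 was measured at 654 to 883 FPKM (median 728) and at 123 to 728 FPKM (median 186), and axonal knockdown 3, at 728 FPKM, lay among the somatodendritic values. Its difference of -1.36 (95% interval -2.02 to -0.70, adjusted p = 0.0448) lost its call when any 1 of 10 libraries was left out and kept it only without axonal knockdown 3 or 4, the adjusted p running from 0.00778 to 0.0985. Marker lists moved with this contrast too. Pan-neuronal markers had 8 of 8 negative differences (median -1.15) and markers of other neurons 6 of 6 (median -1.09), with none called in either list. Called higher in axons were 2 of 13 glial and progenitor markers, 1 of 5 fibroblast and vessel markers and 1 of 5 nuclear RNAs. Their smallest adjusted p by limma were 0.0297, 0.0173 and 0.0169, and 129 of all 14021 genes were called higher. Of the 13 glial and progenitor markers, 10 had negative differences (median -0.42). The part of these lists in the differences was not tested.

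The axonal knockdown libraries split along the pan-neuronal markers for most of these genes. Mapt was at 350.1 and 319 FPKM in axonal knockdown 3 and 4 and at 57.0 to 136 FPKM in the other 4, and Stmn1 was at 201 and 153 FPKM beside 50.2 to 116 FPKM. Without libraries 3 and 4, 7 of 10 genes were called lower in axons, beside 3.92% of all genes, namely Dpysl3 (-1.87, adjusted p = 0.000336), Stmn2 (-1.64, 0.00115), Mapt (-1.84, 0.00130), Stmn1 (-1.03, 0.0213), Stmn3 (-2.44, 0.0285), Map1b (-0.90, 0.0367) and Dcx (-1.05, 0.0395). Since libraries 3 and 4 were the highest of their group for 8 of the 10 genes, leaving them out lowers the axonal values by construction, and these calls are a description that gives the differences no support. With all 12 libraries Mapt had a difference of -1.30 (adjusted p = 0.0756), Stmn1 of -0.74 (0.159), Stmn3 of -1.67 (0.197; -0.96 without axonal knockdown 5), Stmn4 of -1.14 (0.230), Dcx of -0.79 (0.202), Map1b of -0.61 (0.258), Map2 of -0.55 (0.327) and Map1a of -0.36 (0.588). Leaving out the 5 shallow libraries, or scaling to the pan-neuronal sum, left none of the 10 called, beside 0.550% and 10.3% of all genes. On the pan-neuronal scale Stmn1, Stmn4, Map1a, Map1b, Map2 and Dcx turned to positive differences and the median of all genes was 0.78. The part of the pan-neuronal content of each library in these differences was not tested beyond these scalings.

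**Figure D3:**
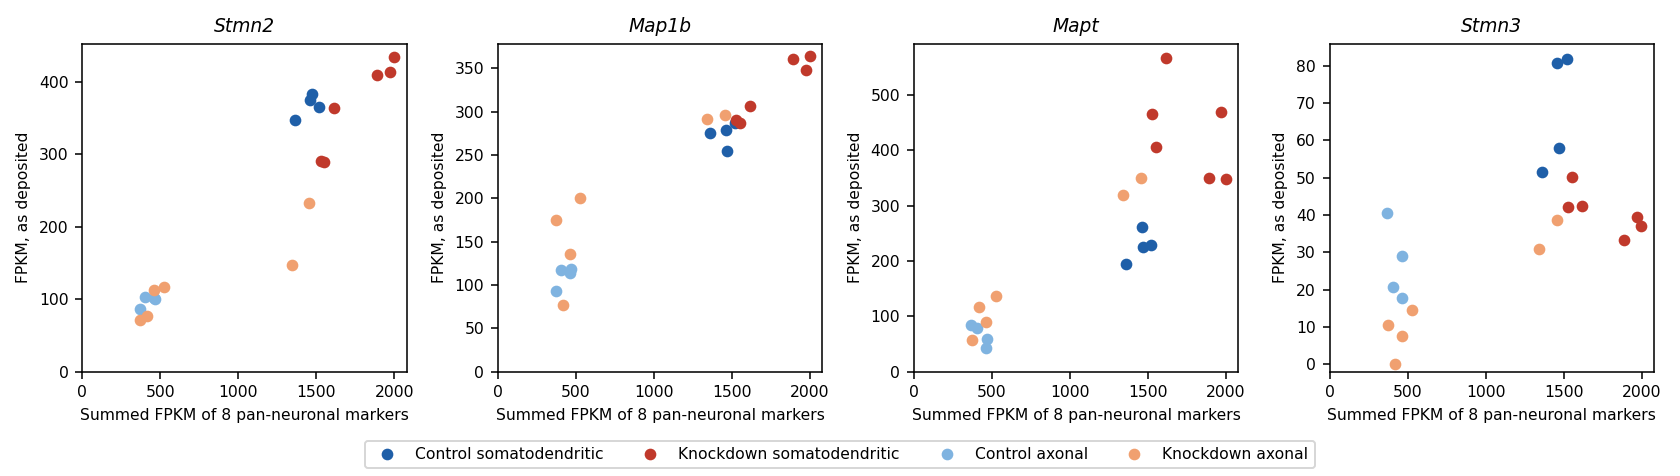
FPKM as deposited of Stmn2, Map1b, Mapt and Stmn3 (vertical axes) against the summed FPKM of 8 pan-neuronal markers (horizontal axes), with 1 point per library. Axonal knockdown 3 and 4, with sums of 1457 and 1343, lie near the somatodendritic libraries on the horizontal axis (lowest sum 1362) and apart from the other 8 axonal libraries at 370.0 to 526, but their Stmn2 levels of 233 and 147 FPKM are below every somatodendritic library.

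Relative to the pan-neuronal sum of the same library, Stmn2 amounted to 25.3% ± 0.883 (SD, n = 4) in somatodendritic and 23.1% ± 1.82 (n = 4) in axonal controls, and to 20.8% ± 1.57 (n = 6) and 18.5% ± 4.73 (n = 6) in the knockdown groups. Map1b was at 18.9% ± 1.20 in somatodendritic controls, 26.0% ± 1.98 in axonal controls, 18.6% ± 0.565 in somatodendritic knockdown and 29.1% ± 11.3 in axonal knockdown. Stmn3 was at 4.66% ± 0.921 and 2.37% ± 0.586 in somatodendritic control and knockdown, and at 6.53% ± 3.11 and 2.02% ± 1.08 on the axonal side. These shares are descriptions for which no test was made.

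The second question was whether loss of Tdp-43 moved these transcripts in the cell body compartment. None of the 10 genes passed at an adjusted p of 0.05 after scaling, beside 0.966% of 13762 genes tested, which were 30 higher and 103 lower. At an unadjusted p under 0.05, Map2, Mapt, Dcx and Dpysl3 had positive differences, beside 4.58% of all genes, and Stmn3 and Stmn4 had negative ones, beside 9.21%. The median difference was -0.43 for the 4 stathmins and 0.29 for the 4 microtubule-associated proteins, where that of all genes was -0.14. With FPKM as deposited the median of all genes was 0.04.

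Stmn3, the stathmin-like protein SCLIP, came closest to the threshold. It was measured at 81.7, 57.9, 80.6 and 51.6 FPKM in controls and at 33.4 to 50.2 FPKM (median 40.7) in the 6 knockdown libraries, all of which lay below all controls. Of all genes, 1.96% did not overlap in this direction as deposited. The difference was -0.92 (95% interval -1.34 to -0.49, limma, adjusted p = 0.0503), and knockdown libraries averaged 60.0% of controls as deposited and 51.9% after scaling. Its adjusted p was 0.0474 without somatodendritic control 4, 0.0485 without somatodendritic knockdown 3, 0.0447 without knockdown 6 and 0.0472 after quantile normalization. Over the 10 fits that left out 1 library it ran up to 0.174.

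Stmn4 was measured at 131, 177, 156 and 171 FPKM in controls and at 74.6 to 180.1 FPKM (median 120.3) after knockdown. The knockdown libraries split into 3 at 74.6 to 94.5 FPKM and 3 at 146 to 180.1 FPKM, so that they overlapped the controls (difference -0.63, adjusted p = 0.301). Stmn1 and Stmn2, the more abundant stathmins, were at 101% and 99.8% of the control mean as deposited. Stmn2 ranged from 289.8 to 435 FPKM after knockdown, with 2 libraries below and 3 above all controls, and its difference was -0.23 after scaling (95% interval -0.54 to 0.07, adjusted p = 0.509). The interval for Stmn1 was -0.50 to 0.11 around -0.20 (adjusted p = 0.586), and with FPKM as deposited its difference was 0.01.

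Mapt was measured at 195 to 261 FPKM in controls and at 348 to 566 FPKM (median 435) after knockdown, with no overlap. The difference was 0.70 (95% interval 0.32 to 1.08, adjusted p = 0.0819). Map2 was measured at 291, 392.4, 355 and 276 FPKM in controls and at 443 to 589 FPKM (median 548) after knockdown, also without overlap, for a difference of 0.48 (95% interval 0.20 to 0.76, adjusted p = 0.103). The other members of the group were closer to the controls. Map1b was at 287 to 364 FPKM after knockdown, each library above the highest control as deposited, with a scaled difference of 0.03 (adjusted p = 0.931) that was -0.02 on the pan-neuronal scale. Map1a had a difference of 0.10 (95% interval -0.27 to 0.48, adjusted p = 0.840).

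Dcx was measured at 62.1, 46.5, 59.2 and 55.6 FPKM in controls and at 76.3 to 123 FPKM (median 103) after knockdown, and Dpysl3 at 362 to 523 FPKM and at 654 to 883 FPKM (median 728). Neither overlapped. The difference was 0.63 for Dcx (95% interval 0.31 to 0.94, adjusted p = 0.0685) and 0.55 for Dpysl3 (95% interval 0.22 to 0.89, adjusted p = 0.117). Without somatodendritic knockdown 6 the adjusted p of Dcx was 0.0372, and over the 10 fits that left out 1 library it ran up to 0.213.

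The call for these genes turned on the scaling of libraries. As deposited, the knockdown mean was 161% of control for Map2, 169% for Dpysl3, 181% for Dcx and 191% for Mapt, and all 4 genes were called higher, beside 1.09% of all genes, with adjusted p of 0.0246, 0.0195, 0.0242 and 0.0112. After scaling, the same means were 138%, 146%, 156% and 166% of control and none was called. Map2, Mapt, Dcx and Dpysl3 were the 4 genes whose scaled knockdown values all exceeded the controls, beside 1.90% of all genes, and Stmn3 was the 1 gene below, beside 3.60%. As deposited Map1b joined them above, 5 of 10 beside 4.24%. The summed pan-neuronal markers, as deposited, were also above all controls in the knockdown libraries (1528 to 1998 against 1362 to 1519), with Gap43 at a mean of 837 against 652 FPKM and Ina at 254 against 161 FPKM, whereas Syt1 was at 28.3 against 37.6 and Uchl1 at 113 against 142 FPKM. After scaling, 3 of the 8 had positive and 5 negative differences (median -0.03), and none was called. Glial and progenitor markers summed to 316 to 570 FPKM in knockdown and 510 to 662 FPKM in control libraries over 14 genes, and their part in these differences was not tested.

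**Figure D4:**
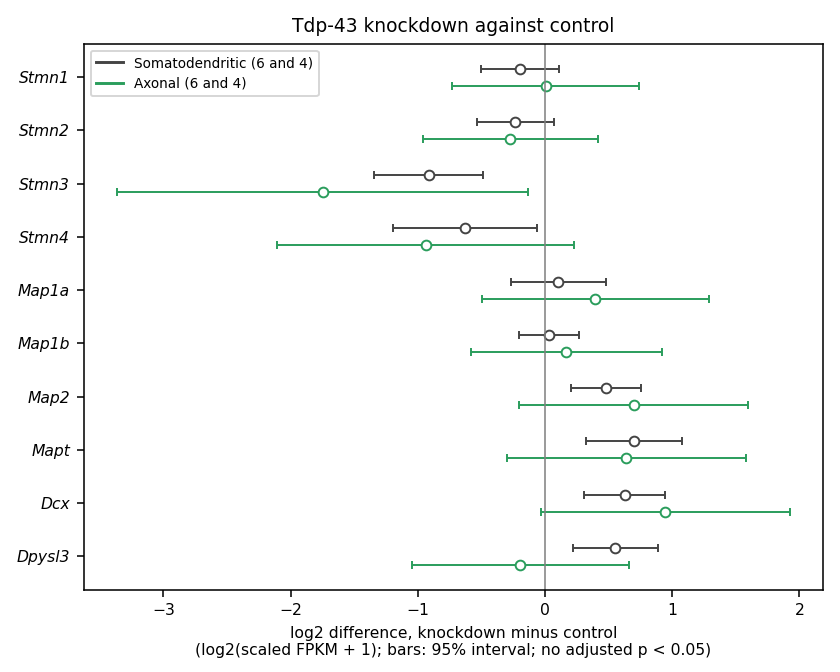
Difference between knockdown and control libraries (horizontal axis, log2 of scaled FPKM + 1) for the 10 genes in the somatodendritic and the axonal compartment, with 95% intervals from limma. No point reached an adjusted p under 0.05, and somatodendritic intervals lie above 0 for Map2, Mapt, Dcx and Dpysl3 and below 0 for Stmn3 and Stmn4.

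In the axonal compartment, where the knockdown libraries were widely spread, no difference of these genes was detectable. None of the 10 was called, beside 0.394% of 13958 genes, and 1 gene, Stmn3, had an unadjusted p under 0.05 with a negative difference, beside 6.44%. No gene had groups that did not overlap, beside 3.25% of all genes as deposited and 2.47% after scaling. The median of all genes was -0.17 after scaling and 0.23 as deposited. Stmn3 was measured at 40.6, 17.8, 28.9 and 20.7 FPKM in axonal controls and, in those labelled axonal knockdown, at 14.4, 7.70, 38.6, 30.8, 0 and 10.4 FPKM. In 4 of the 6 it lay below all controls, and the 2 that did not were libraries 3 and 4, for a difference of -1.75 (95% interval -3.36 to -0.13, adjusted p = 0.543). The value of 0 is that of the shallowest library (relative depth 0.103), without which the difference was -1.07 (adjusted p = 0.464). The sum of 5 RNAs that are retained in the nucleus was 445 to 764 FPKM in axonal controls and 1159 to 2329 FPKM in axonal knockdown libraries, without overlap, with libraries 3 and 4 the highest at 2329 and 2103 FPKM. This rested on Malat1 (312 to 489 against 1041 to 1800 FPKM), and the other 4 overlapped between the groups. The somatodendritic sums were 789 to 1165 FPKM in control and 680 to 1383 FPKM in knockdown. All 5 had positive scaled differences on the axonal side and none passed (smallest adjusted p = 0.0734), and their part in the axonal knockdown values was not tested.

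Dcx was at 13.2, 14.4, 11.4 and 37.8 FPKM in axonal controls and at 21.3 to 98.2 FPKM (median 53.2) after knockdown (difference 0.95, 95% interval -0.03 to 1.92, adjusted p = 0.598). The difference was 0.70 for Map2 (adjusted p = 0.696), 0.64 for Mapt (0.735), 0.40 for Map1a (0.830) and -0.94 for Stmn4 (0.684), none of which passed. Stmn2 had a difference of -0.27 (95% interval -0.96 to 0.42, adjusted p = 0.846) that was 0.25 as deposited, and Dpysl3 one of -0.20 (adjusted p = 0.918) that was 0.33 as deposited. The differences of Map1b (0.17) and Stmn1 (0.01) were -0.13 and -0.28 without libraries 3 and 4. Without them the other differences were -2.48 for Stmn3 (adjusted p = 0.267), -1.38 for Stmn4, -0.70 for Dpysl3, -0.54 for Stmn2, 0.10 for Mapt, 0.35 for Map1a, 0.46 for Map2 and 0.69 for Dcx, and none passed.

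Whether knockdown moved a transcript differently in axons and cell bodies was tested as an interaction over the 20 libraries. None of the 10 genes passed, beside 0.0711% of 14062 genes, and none had an unadjusted p under 0.05, beside 5.58%. Dpysl3 had the smallest p, with an axonal minus somatodendritic difference in effect of -0.77 (95% interval -1.67 to 0.13, limma, adjusted p = 0.936). For Stmn3 it was -0.90 (95% interval -2.71 to 0.92, adjusted p = 0.964), for Stmn2 -0.06 (95% interval -0.72 to 0.60) and for Map1b 0.11 (95% interval -0.61 to 0.84). The value of Stmn3 was -0.21 without axonal knockdown 5, the shallowest library, and -1.21 to -0.68 without any other single library. Without libraries 3 and 4 the values were -1.26 for Dpysl3 (adjusted p = 0.134), -1.65 for Stmn3 (0.598), -0.31 for Stmn2 and -0.17 for Map1b, and none of the 10 passed.

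Ratios of related genes were taken within each library from FPKM + 1 as deposited, and 3 were compared in 4 contrasts each by two-sided exact permutation tests, with p adjusted over the 12. The Stmn2 to Stmn1 ratio, on a log2 scale, was 0.59, 0.76, 0.85 and 0.94 in somatodendritic controls and 0.30, 0.55, 0.38 and 0.34 in axonal controls. The groups did not overlap, and the difference of -0.39 had the smallest p that 4 against 4 libraries allow (exact p = 0.0286, adjusted p = 0.171). After knockdown the ratio was 0.49 to 1.23 on the somatodendritic side and -0.43 to 0.60 on the axonal side, a difference of -0.64 (exact p = 0.00866, adjusted p = 0.104) with some overlap. Neither passed after adjustment. Knockdown and control differed in this ratio by -0.03 on the somatodendritic side (exact p = 0.819) and by -0.28 on the axonal side (exact p = 0.162).

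The Map2 to Mapt ratio sets a dendritic against an axonal protein. It was 0.52 ± 0.19 (SD, n = 4) in somatodendritic and 0.99 ± 0.56 (n = 4) in axonal controls (exact permutation p = 0.0857, adjusted p = 0.273), and 0.30 ± 0.39 (n = 6) and 1.05 ± 0.89 (n = 6) after knockdown (exact p = 0.0909, adjusted p = 0.273). The axonal groups were wide, from 0.57 to 1.81 in controls and from 0.08 to 2.46 in knockdown, and overlapped the somatodendritic ones. Without axonal control 4, at 1.81, the control difference of 0.47 was 0.19. The Map1a to Map1b ratio, of a mature against a growth form, was -2.44 ± 0.16 and -2.33 ± 0.55 in somatodendritic and axonal controls, and -2.37 ± 0.27 and -2.12 ± 0.99 in the same compartments after knockdown, with adjusted p of 0.943 in all 4 contrasts by exact permutation tests. Axonal knockdown 5, the shallowest library, was at -0.16 and the other 5 at -2.79 to -2.10. Without it the compartment difference in knockdown turned from 0.25 to -0.14, and without axonal control 4 that in controls turned from 0.11 to -0.12.

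**Figure D5:**
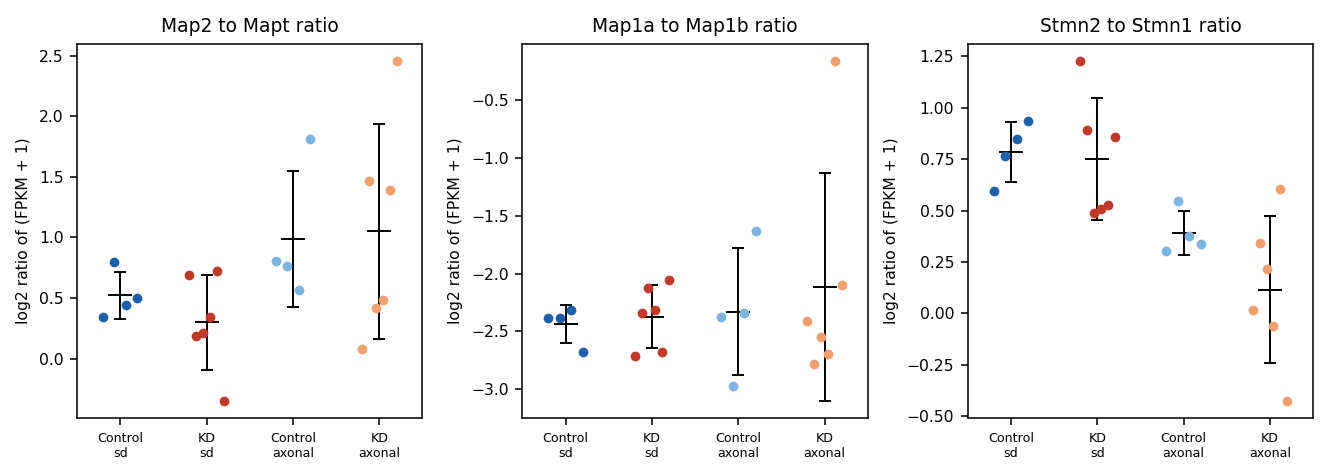
Ratios of the FPKM + 1 of Map2 to Mapt, Map1a to Map1b and Stmn2 to Stmn1 within each library (vertical axes, log2), in control and knockdown (KD) libraries of the somatodendritic (sd) and axonal compartments, with bars for the mean and SD (n = 4 and 6). Axonal control points of Stmn2 to Stmn1, at 0.30 to 0.55, lie below the somatodendritic control points at 0.59 to 0.94, and 1 axonal knockdown library lies apart for Map1a to Map1b at -0.16.

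To place the 10 genes among others that act on microtubules, 89 further genes in 6 lists were read from the same fits. In controls, 5 of 20 other neuronal microtubule-associated proteins and CRMPs, 3 of 18 kinases and phosphatases that act on them, 1 of 21 end-binding proteins and 1 of 13 tubulin modifying enzymes were lower in axons, and none of 8 severing proteins or 7 tubulin folding cofactors, beside 2.57% of all genes. None was higher. Median differences were -0.79, -0.58, -0.09, -0.54, -0.15 and -0.08 in that order of lists, beside -0.02 for all genes. The genes with the smallest p were Crmp1 (-1.46, adjusted p = 0.000948), a relative of Dpysl3, Cdk5r2 (-1.50, 0.0052), an activator of the tau kinase Cdk5, Ppp2r2b (-1.61, 0.00696), a regulatory subunit of protein phosphatase 2A, and Dpysl2 (-1.07, 0.0116), which binds tubulin. Crmp1, Cdk5r2 and Ppp2r2b were called without any single library, whereas Dpysl2 was not called without somatodendritic control 3 (adjusted p = 0.0517). On the pan-neuronal scale none of the 4 was called, and Dpysl2 turned to 0.10.

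In knockdown motoneurons the calls were Crmp1 (-1.67, adjusted p = 0.0201), Ppp2r2b (-1.46, 0.0366), Dpysl2 (-1.26, 0.0430) and Cdk5r1 (-1.47, 0.0447), again all lower in axons. They made up 2 of 19 genes of the first list and 2 of 18 kinases and phosphatases, with none in the other lists, beside 0.421% of all genes called lower. Crmp1 was not called without somatodendritic knockdown 1 (adjusted p = 0.0531) or 5 (0.0502), or without the shallow libraries (0.0680). Ppp2r2b, Dpysl2 and Cdk5r1 were called in 3 of the 12 fits that left out 1 library, with adjusted p up to 0.0918, 0.0970 and 0.106, and none of these 3 was called with a pseudocount of 0.1 or with no filter (adjusted p 0.0531 to 0.0691). On the pan-neuronal scale none of the 4 was called. Without axonal knockdown 3 and 4 all 4 were (-2.19 to -1.65). In the knockdown comparison, Crmp1 was higher on the somatodendritic side by 0.49 (adjusted p = 0.0229), a call lost without any 1 of the 4 control libraries (adjusted p 0.0579 to 0.104), after quantile normalization (0.0807) or on the pan-neuronal scale (0.0891). No other listed gene passed there, and none passed on the axonal side or in the interaction.

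Over the 20 libraries, the genes whose scaled log2 levels ran most closely with those of Stmn2, among 5744 genes that averaged 10 FPKM or more, included Tubb3 (Pearson r = 0.969) and Tspan7 (0.952). For Map1b they included Fbxo21 (0.939) and Rabgap1l (0.935), for Mapt they were Calm3 (0.941), Ap2b1 (0.939) and Crmp1 (0.924), and for Map2 they included Ncam2 (0.876) and Kdm5b (0.870). Within the 10 genes, r was highest between Stmn1 and Map1b (0.918) and between Stmn1 and Stmn2 (0.883), and lowest between Stmn3 and Map1a (-0.10). The libraries share compartment and treatment, so these values describe the pattern across 4 groups and carry no test.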

How the data were processed

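The 20 libraries were compared from tables in which the authors deposited 1 FPKM value per gene and library. The submitters' processing notes name FastQC 0.10.1, Cufflinks 2.2.1 and build GRCm38, and the labels name no batch. The deposited interval of each FPKM was read as ± 2 SD, and implied fragments were the square of FPKM over that SD. Relative depth came from implied fragments per FPKM of 680 genes with more than 3 in every library. Each gene was set against its mean over libraries, and the median over genes was scaled to the deepest library. Library scaling used the median ratio across genes that reached 1 FPKM throughout (within a compartment for knockdown against control, over all 20 libraries otherwise). Genes averaging 1 FPKM or more went into limma 3.58.1 in R 4.3.3 with a mean-variance trend on log2(scaled FPKM + 1), two-sided, with p adjusted by Benjamini-Hochberg over every gene in the fit and a threshold of 0.05. With this pseudocount of 1 differences of low genes are understated. All 10 genes passed the filter in every comparison. Ratios were tested by exact permutation in scipy 1.17.1 under Python 3.11.15, with numpy 2.4.6, pandas 2.3.3 and matplotlib 3.10.9. The fits were also run on simulated data in which every group had the same spread beyond counting noise. The axonal knockdown group was wider here, so that run gives no error rate for these data.

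Genes were matched to GENCODE M21 by identifier (37604 genes, 96.0%). The members and lists were chosen with earlier results of these data known. Genes named beside the 10 were Tardbp, up to 4 genes per direction and comparison with an adjusted p under 0.05 from 6 lists of other microtubule genes, smallest p first, and for 4 members the 3 genes of highest Pearson r. Some genes that these rules pick are not reported here. Marker lists were summed per library. The alternatives were FPKM as deposited, quantile normalization, a pseudocount of 0.1, no filter, leaving out libraries under a relative depth of 0.5, a replicate block, medians of ratios, and leaving out each library. Scaling to pan-neuronal markers and leaving out axonal knockdown 3 and 4 were added after the data were seen.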

Additional observations from a re-analysis of the deposited data

Results flagged for a closer look

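Of 52 groups of 4 or 6 libraries checked for a library far from the others of its group, 4 were picked out, and chance alone picks out about 1 group in 20. Stmn4 was at 91.8 FPKM in axonal control 3, above the 47.6 to 54.0 FPKM of the other axonal controls. Map1b was at 92.6 FPKM in axonal control 1, below 114 to 119 FPKM in the others. Dcx was at 37.8 FPKM in axonal control 4, above 11.4 to 14.4 FPKM in the others, and the same library had the highest Map1a and Map2 of its group. The log2 ratio of Map1a to Map1b was -0.16 in axonal knockdown 5, beside -2.79 to -2.10 in the other axonal knockdown libraries. That library was the shallowest of the 20 (relative depth 0.103). Implied fragments there, which are not read counts, were 1.3 for Map1a and 67.0 for Map1b.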

How the results depend on the processing

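Several calls depended on the scaling or on single libraries. Over all alternatives 114 of 150 differences between control compartments kept direction and side of the threshold, as did 168 of 200 in knockdown, 159 of 170 for knockdown on the somatodendritic side, 170 of 180 on the axonal side and 56 of 56 for the interaction (Stmn3 and Dpysl3). With FPKM as deposited, 2055 genes and 10 members differed between control compartments (929 and 4 in the main setting) and 233 genes and 4 members after somatodendritic knockdown (133 and 0), Stmn1 turned to 0.014 there, and Stmn2 and Dpysl3 turned to 0.25 and 0.33 after axonal knockdown. Quantile normalization gave 7, 1 and 1 members in control compartments, knockdown compartments and somatodendritic knockdown. A pseudocount of 0.1 gave 30 genes after axonal knockdown (55 in the main setting) and 77 genes and 1 member between knockdown compartments (188 and 2), no filter gave 75 and 1, and leaving out libraries under a depth of 0.5 gave 78 and 0.

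Scaled to pan-neuronal markers, 4588 genes and 0 members differed between control compartments, with Stmn1 at 0.26, Stmn3 0.39, Stmn4 0.37, Map1a 0.53, Map1b 0.46, Map2 0.43, Dcx 0.061, Dpysl3 0.59 and Dpysl2 0.10, and 1438 genes and 0 members between knockdown compartments, with Stmn1 at 0.43, Stmn4 0.0042, Map1a 0.79, Map1b 0.56, Map2 0.62 and Dcx 0.37. On that scale Map1b was -0.022 after somatodendritic and Stmn1 -0.081 after axonal knockdown. Without axonal knockdown 3 and 4, 1086 genes and 7 members differed between knockdown compartments, and Stmn1 and Map1b were -0.28 and -0.13 after axonal knockdown. Without shallow libraries the Map2 to Mapt ratio after axonal knockdown was -0.00373 and that of Map1a to Map1b -0.023; by medians the latter was -0.12, and -0.15 between knockdown compartments. Where the cause of a turn is not in the setting itself, the cause was not tested.

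Leaving out 1 library gave 363 to 1556 genes and 1 to 6 members between control compartments, 45 to 455 and 1 to 3 between knockdown compartments, and 58 to 197 and 0 to 2 after somatodendritic knockdown. Stmn1 after axonal knockdown ran from -0.10 to 0.21. The Map2 to Mapt ratio after axonal knockdown ran from -0.22 to 0.34, the Stmn2 to Stmn1 ratio after somatodendritic knockdown from -0.13 to 0.018, and Map1a to Map1b from -0.012 to 0.14 and -0.18 to 0.44 after somatodendritic and axonal knockdown and from -0.12 to 0.32 and -0.14 to 0.39 between compartments in control and knockdown. Libraries of the same replicate number did not deviate together (correlation of deviations -0.035 to 0.071), which cannot exclude that a number marks a shared culture. With the replicate block, 440 genes and 2 members differed between control compartments, 13 and 0 between knockdown compartments, 18 genes after somatodendritic and 35 after axonal knockdown, and Dpysl3 was 0.12 in the last. The block left uncalled Stmn1 (adjusted p = 0.0593), Map1b (0.0926) and Dpysl2 (0.0506) between control compartments, Stmn2 (0.0659), Dpysl3 (0.0807), Crmp1 (0.0509), Ppp2r2b and Dpysl2 (both 0.0832) and Cdk5r1 (0.107) between knockdown compartments, and Tardbp (0.1004) and Crmp1 (0.122) after somatodendritic knockdown, all by limma. Depth was below 0.5 of the deepest library in 3 axonal and 2 somatodendritic knockdown libraries.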
